A study of Homo sapiens with 12 samples.

Results

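Untreated LNCaP cells were set against untreated PC3 cells, a pair of human prostate cancer lines that stand for an androgen-sensitive and an androgen-independent disease. RNA was sequenced from 3 LNCaP and 3 PC3 libraries that had received DMSO, the solvent, and a further 3 libraries of each line had received erastin at 5 µmol/L, a blocker of cystine uptake used to set off ferroptosis. All 12 libraries carry the genotype label WT, and the labels name no transgene or selection. They do not say whether replicates were separate cultures, so the spread between libraries may be technical. The values are FPKM, a fragment count divided by gene length and by sequencing depth, deposited in 1 table per line. Genes were matched by identifier and kept where they were protein-coding, had the same length in both tables and had 1 FPKM or more in 3 or more of the 6 untreated libraries. That left 4609 genes of the 19874 that were protein-coding in both tables. Another 7114 genes reached the same level but had unequal lengths, and 4309 of equal length stayed below it.

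LNCaP came from a lymph node metastasis and PC3 from a bone metastasis. In luminal prostate cells androgens switch on secreted kallikrein proteases and other prostate products, and LNCaP is widely used because it keeps that programme. PC3 grows without androgen and is known for abundant adhesion, cytoskeletal and protease genes. AP-1, a dimer of FOS and JUN family proteins, and the co-activators YAP and TAZ are known to drive many genes of that second kind.

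The 2 tables were scaled apart and use different annotation releases, so line and table cannot be told apart. No test was made between them, and only large differences are described. A difference is the mean log2(FPKM + 1) in LNCaP minus that in PC3, given with its standard error over 3 and 3 libraries. A gene was called higher in a line when the difference reached 3, which is 8-fold on this scale, and all 3 libraries of that line lay above all 3 of the other. The scale understates the fold of genes that are low in one line. FPKM levels are given as mean ± SD (n = 3) or library by library in replicate order.

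Start-site sequences are shown for 4 genes with large differences. Of these, 1 holds an arm of the androgen response element and 3 hold TGANTCA, a loose form of the AP-1 motif, both counted further on. Each is the 250 bases before the first start listed for the gene in RefSeq (GRCh38.p14), read along the gene's own strand, with the motif in capitals. KLK3, higher in LNCaP, is at chr19:50854665-50854914 on the plus strand, and its capitals mark AGAACA. CSAG1, also higher in LNCaP, holds the same arm on the other strand, 65 bases before its start, and is not printed. ANXA2 at chr15:60397987-60398236 on the minus strand, PRSS3 at chr9:33795311-33795560 on the plus strand and IL1RL1 at chr2:102337007-102337256 on the plus strand were higher in PC3, and their capitals mark TGANTCA. The base N of TGANTCA is G in ANXA2, A in PRSS3 and T in IL1RL1, so the 3 matches are different sequences. Whether AP-1 binds any of them was not tested. The KLK3 start is also the start of the gene in the deposited table. The starts used for ANXA2, PRSS3 and IL1RL1 lie 4897, 45095 and 25755 bases inside the deposited genes, so their windows are at internal starts.
KLK3: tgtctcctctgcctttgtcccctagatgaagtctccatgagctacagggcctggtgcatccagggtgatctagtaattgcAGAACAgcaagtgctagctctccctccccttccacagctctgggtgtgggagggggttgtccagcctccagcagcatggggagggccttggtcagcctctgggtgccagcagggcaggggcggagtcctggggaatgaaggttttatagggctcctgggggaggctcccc
ANXA2: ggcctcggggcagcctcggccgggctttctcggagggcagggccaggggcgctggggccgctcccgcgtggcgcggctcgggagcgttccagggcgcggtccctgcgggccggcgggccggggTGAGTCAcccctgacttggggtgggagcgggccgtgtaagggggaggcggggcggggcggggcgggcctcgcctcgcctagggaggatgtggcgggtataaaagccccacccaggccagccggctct
PRSS3: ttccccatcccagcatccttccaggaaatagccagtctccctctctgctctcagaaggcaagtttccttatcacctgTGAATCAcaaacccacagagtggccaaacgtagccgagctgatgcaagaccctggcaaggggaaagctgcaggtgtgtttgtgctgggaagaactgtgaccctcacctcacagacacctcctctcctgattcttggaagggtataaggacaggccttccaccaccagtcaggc
IL1RL1: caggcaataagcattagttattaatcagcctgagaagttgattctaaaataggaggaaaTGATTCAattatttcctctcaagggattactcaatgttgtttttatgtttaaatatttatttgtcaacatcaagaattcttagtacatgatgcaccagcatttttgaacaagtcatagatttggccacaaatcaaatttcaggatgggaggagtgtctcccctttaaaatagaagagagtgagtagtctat

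The reads recovered from the FPKM steps numbered 14047979 to 17537654 in the untreated LNCaP libraries and 15057830 to 15415538 in the untreated PC3 libraries. The genes compared held 38.4% to 40.2% of them. PC3 library 1 stood apart from the other PC3 libraries. Over the genes compared, its log2 values differed from those of libraries 2 and 3 with an SD of 0.52 and 0.63, against 0.19 between libraries 2 and 3. In LNCaP the 3 pairs gave 0.23 to 0.47. Without PC3 library 1, the calls numbered 38 higher in LNCaP, 36 of them the same genes, and 117 higher in PC3, 107 of them the same genes.

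Most markers of the lines sat where the labels put them. Of 7 LNCaP markers, 6 were past the threshold towards LNCaP, and of 7 PC3 markers, 6 were past it towards PC3, genes of unequal length included. The exceptions were HOXB13, an LNCaP marker at -0.03 ± 0.28 with overlapping libraries, and EGFR, a PC3 marker at -0.81 ± 0.25. KLK3, which encodes prostate-specific antigen, was at 185, 202 and 233 FPKM in the LNCaP libraries and at 0.0154, 0 and 0 in the PC3 libraries. KLK3, HOXB13, CD44 and ITGB4 were among the genes compared. The next 3 markers had unequal lengths in the tables and so lay outside them. FOLH1, which encodes prostate-specific membrane antigen, was at 271 ± 34.9 FPKM in LNCaP and 0.0616 ± 0.0195 in PC3. CAV1, the coat protein of caveolae, was at 0.0109 ± 0.0189 in LNCaP and 235 ± 38.4 in PC3, and VIM, the intermediate filament of mesenchymal cells, at 2.91 ± 1.26 and 46.2 ± 1.86. The libraries of these 4 markers did not overlap between the lines.

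A second check went against the PC3 label. CTNNA1, which encodes alpha-catenin, is known to be deleted at least in part in PC3. It was at 35.7, 38.1 and 36.6 FPKM in LNCaP and at 56.7, 50.6 and 51.2 in the untreated libraries labelled PC3. In the erastin libraries labelled PC3, CTNNA1 was at 5.92, 6.61 and 6.18. A gene total cannot show whether part of a gene is missing, so PC3 below means the libraries with that label.

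Markers of other cell types were low in LNCaP. The summed level of 7 fibroblast genes was 1.36 to 1.67 FPKM in LNCaP and 3.39 to 5.62 in PC3. Of 7 leukocyte genes it was 0.0610 to 0.322 and 0.533 to 1.19. The 5 endothelial genes summed to 0.561 to 0.684 in LNCaP and 27.2 to 32.3 in PC3, most of it KDR, a VEGF receptor, at 28.9 ± 2.63. PECAM1, a defining endothelial gene, was at 0 in all 3 LNCaP libraries and at 1.06 in PC3. VWF went the other way, at 0.603 in LNCaP and 0.00900 in PC3. CDH5 was at 0 in all untreated libraries, and TEK was at 0.00927 in LNCaP and 0.0636 in PC3. The part of other cells in the differences was not tested.

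Most genes lay close together in the lines. The median difference over the 4609 genes was -0.04, with an interquartile range of -0.65 to 0.54, and 70.0% of genes lay within 1 of 0. Even so, 59.7% of genes had no overlap between the 3 and 3 libraries, so lack of overlap alone says little here. At the threshold, 38 genes were higher in LNCaP, 0.824% of those compared, and 117 were higher in PC3, 2.54%. Of the 38, 29 were under 1 FPKM in all 3 PC3 libraries, and of the 117, 91 were under 1 FPKM in all 3 LNCaP libraries. The genes nearest the threshold were RFLNB at 3.02 and FBXL17 at 2.96 on the LNCaP side, and FAR2 at -3.01, with DMKN just short of the threshold, on the PC3 side.

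**Figure D1:**
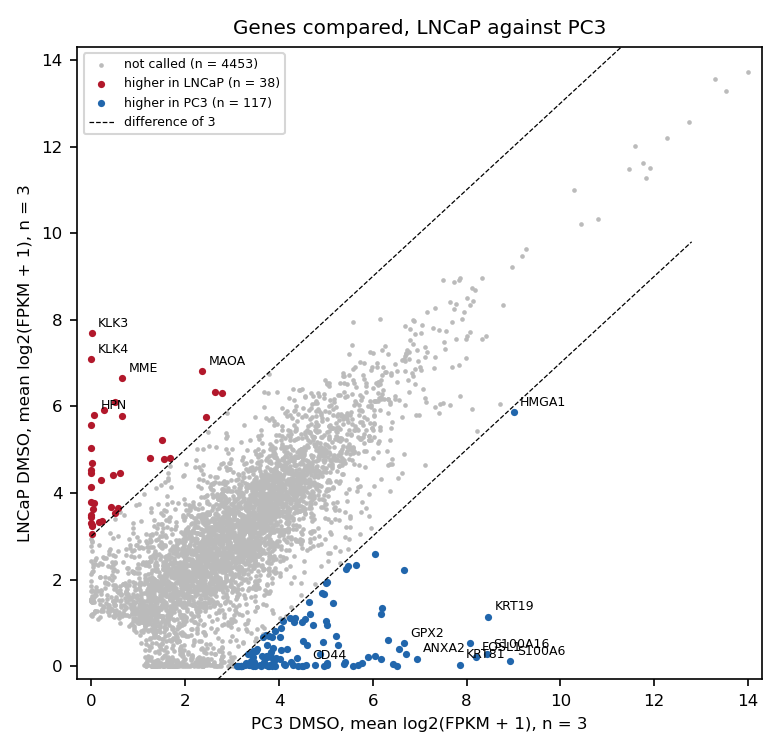
Mean log2(FPKM + 1) of each gene compared, untreated PC3 on the horizontal axis and untreated LNCaP on the vertical axis (n = 3 libraries each, genes on the Y chromosome not drawn). The 38 red and 117 blue points lie beyond the dashed lines at a difference of 3, many of them near 0 in one line.

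The largest differences towards LNCaP were kallikreins, the serine proteases of prostate fluid. KLK3 was at 207 ± 24.1 FPKM against 0.00515 ± 0.00891, a difference of 7.68 ± 0.10. KLK4, a kallikrein also made in developing enamel, was at 142, 152 and 116 in LNCaP and 0 in all 3 in PC3, at least 1247-fold higher over a floor of 3 reads per library. KLK15 and PLA2G2A, a secreted phospholipase, were the other list members compared and were not called, with differences of 1.73 and 1.87. So 2 of the 4 kallikreins and secreted prostate products compared were called, both higher in LNCaP, and the median of the 4 was 4.48. Over all genes compared, 0.824% were called higher in LNCaP.

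Cell surface enzymes followed. MME, the membrane peptidase neprilysin, was at 106, 93.3 and 97.6 FPKM in LNCaP and 1.01, 0.367 and 0.421 in PC3, a difference of 5.99 ± 0.18. HPN, the membrane serine protease hepsin, was at 45.1, 56.2 and 63.3 and 0, 0 and 0.126, a difference of 5.73 ± 0.15. Both genes were called, so the lack of overlap between their libraries follows from the rule. HPN was the 1 call among 3 prostate surface antigens compared. OR51E2, an olfactory-type receptor, and PSCA differed by 1.74 and 1.14.

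Among androgen-responsive genes, KLK3 was the 1 call of 9 compared, but 8 of the 9 differences were above 0 and their median was 1.72, against -0.04 over all genes. LRIG1, a receptor inhibitor, differed by 2.84, FKBP5, a steroid receptor co-chaperone, by 2.71, and CENPN, a centromere protein, by 2.57. NDRG1, the exception, was at 37.1 ± 2.01 FPKM in LNCaP and 40.4 ± 8.03 in PC3. The lineage factors gave 0 calls of 4, which says little beside shares of 0.824% and 2.54% over all genes compared. HOXB13, a prostate homeobox factor, was at 100.3, 120.4 and 126 in LNCaP and 81.4, 137 and 147 in PC3, overlapping. SPDEF, an epithelial ETS factor, differed by 2.95, just under the threshold.

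Cancer-testis genes on the X chromosome, normally silent outside the germ line, made up 5 of the 15 largest differences towards LNCaP. GAGE2A was at 23.9, 54.9 and 76.0 FPKM in LNCaP and 0 in all 3 in PC3. MAGEA6 was at 48.0, 58.0 and 74.7 and 0.115, 0.260 and 0.267. CSAG3 was at 24.2, 22.6 and 19.8 and 0 in all 3, and CSAG1 at 15.2, 19.3 and 32.1 and 0 in all 3. These families hold near-identical copies that share reads, so the level of any 1 copy is uncertain. The X chromosome held 9 of its 178 genes compared as higher in LNCaP, 5.06%, against 0.824% of all genes compared. Most of the 9 belong to the GAGE, MAGEA and CSAG families, so the share is no trait of the chromosome as a whole. GAGE12J, GAGE1 and GAGE2A were neighbours among the genes compared (chrX:49322057-49608536, hg38), as were CSAG3 and MAGEA6, and KLK3 and KLK4 on chromosome 19 (chr19:50854915-50910738).

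The other leading LNCaP genes were enzymes, scaffolds and signalling proteins. MAOA, a mitochondrial monoamine oxidase, was at 110.4, 104 and 119 FPKM in LNCaP and 4.94, 3.73 and 3.82 in PC3, a difference of 4.45 ± 0.12. LIMCH1, an actomyosin regulator, differed by 5.60 ± 0.13. A gene annotated in the PC3 table alone overlaps LIMCH1, and its part in that difference was not tested. LRRC26, a potassium channel subunit, differed by 5.12 ± 0.41, ECHDC3 by 4.69 ± 0.18, GLYATL1 by 4.15 ± 0.12 and GUCY1A1, a subunit of the nitric oxide receptor, by 4.10 ± 0.16. No library of these 6 genes overlapped between the lines, which the call rule requires.

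**Figure D2:**
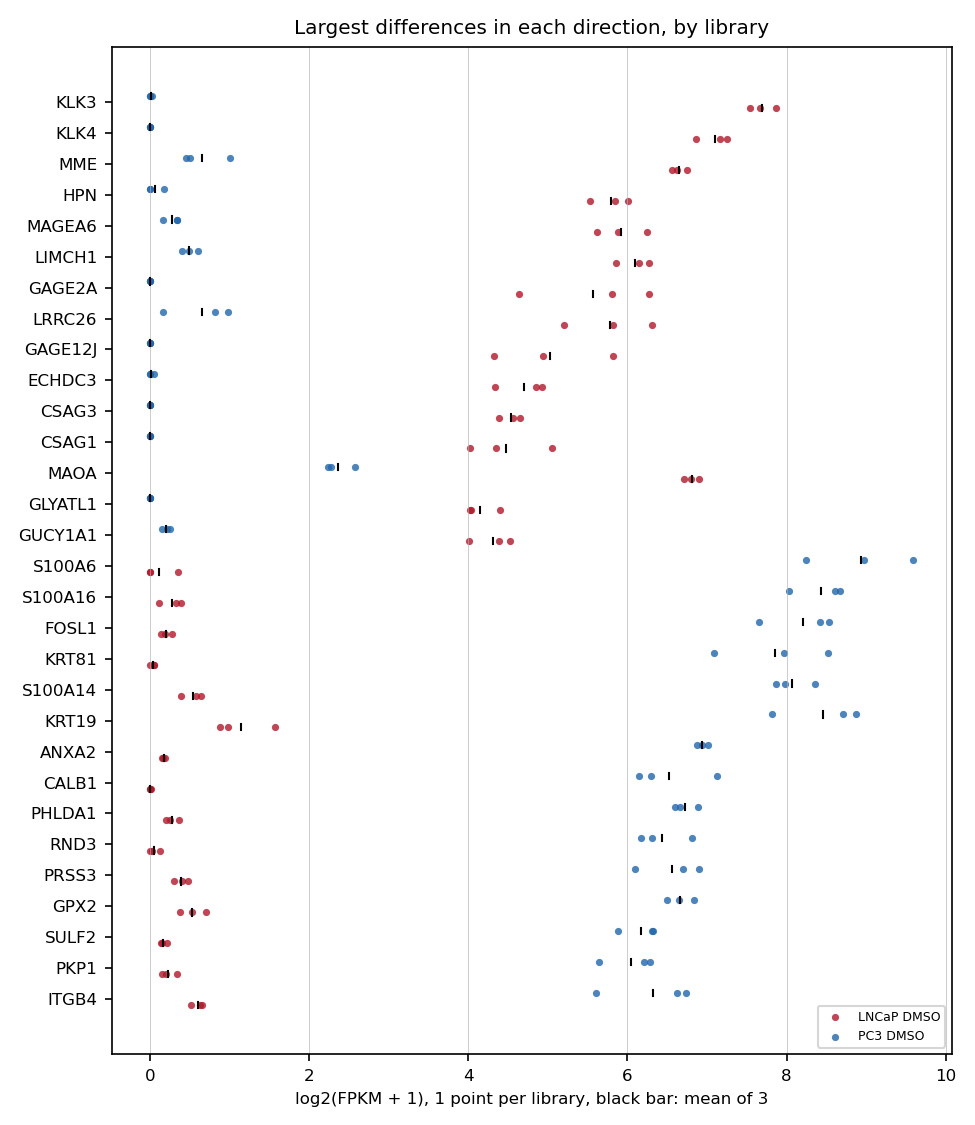
log2(FPKM + 1) in each untreated library for the 15 genes with the largest difference in each direction (points are libraries, red LNCaP and blue PC3, black bars the mean of 3). The lines are separated in every gene because the call rule requires it, and MAOA is the LNCaP-side gene with the highest PC3 level.

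S100 proteins and annexins, calcium-binding proteins of the membrane and cytoskeleton, were among the genes far higher in PC3, and S100A6 had the largest difference of the genes compared. S100A6 was at 302, 502 and 772 FPKM in PC3 and 0.275, 0 and 0 in LNCaP, a difference of -8.82 ± 0.41. S100A16 was at 259.9, 389 and 408 and 0.0786, 0.259 and 0.308, and S100A14 at 232, 252 and 328 and 0.314, 0.492 and 0.564. ANXA2, which binds plasminogen at the cell surface, was at 128, 116 and 122 and 0.121, 0.142 and 0.111, a difference of -6.77 ± 0.04. All 7 members compared were below 0, 4 of them called, with a median of -6.77. Over all genes compared, 2.54% were called higher in PC3. The 3 that were not called were ANXA7 at -1.34, ANXA11 at -1.95 and S100A13 at -2.04. S100A6, S100A16 and S100A14 were neighbours among the genes compared (chr1:153534599-153616986, hg38).

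A pair of keratins was also high in PC3. KRT19, a simple-epithelium keratin, was at 225, 416 and 466 FPKM in PC3 and 0.972, 0.834 and 1.96 in LNCaP, a difference of -7.32 ± 0.39. KRT81, a hair keratin with close relatives in its family, was at 135, 249.6 and 366 and 0.0346, 0.0326 and 0. In KRT19 and KRT81 alike, PC3 library 1 was the lowest of the PC3 libraries and still far above LNCaP. Of 4 keratins compared, 2 were called and all were below 0, KRT8 by -2.67. PKP1, a desmosomal plaque protein, was at 48.8, 72.6 and 77.1 and 0.151, 0.263 and 0.105. Epithelial junction genes as a list gave 0 calls of 11 and a median of 0.27. Beside the shares over all genes compared, 0.824% and 2.54%, 0 of 11 says little. Of the tight junction claudins in this list, CLDN3 differed by 0.50, CLDN7 by 0.88 and CLDN4 by -1.62, CLDN4 without overlap.

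Adhesion receptors gave 3 calls of 5, all higher in PC3, with a median of -4.55, beside calls in PC3 for 2.54% of all genes compared. ITGB4, the hemidesmosome integrin, was at 47.7, 97.8 and 106 FPKM in PC3 and 0.425, 0.576 and 0.542 in LNCaP. ITGA3, a laminin receptor subunit, was at 50.3, 83.0 and 87.2 and 1.41, 1.62 and 0.975. CD44, the hyaluronan receptor, was at 26.1, 21.4 and 21.0 and 0.0267, 0.00628 and 0.00655, a difference of -4.55 ± 0.09. LAMA3 and LAMA5, laminin chains, were not called, at -0.40 and -2.20. Among mesenchymal genes NT5E, the ecto-enzyme CD73, was the 1 call of 2 at -4.99 ± 0.14, and ZEB1, a repressor of epithelial genes, was at 5.98, 3.67 and 3.02 in PC3 and 0.0541, 0.0581 and 0 in LNCaP.

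AP-1 subunits and YAP pathway genes gave 3 calls of 5, again all in PC3, with a median of -3.36. The share over all genes compared was 2.54%. FOSL1, the AP-1 subunit FRA1, was at 199.6, 342 and 369 FPKM in PC3 and 0.142, 0.0999 and 0.208 in LNCaP, a difference of -8.00 ± 0.28. WWTR1, which encodes TAZ, was at 38.0, 28.2 and 24.4 and 0.381, 0.471 and 0.545, and AMOTL2, a YAP-binding scaffold, at 15.3 ± 2.12 and 0.586 ± 0.0628. ATF3, a stress-induced factor, was the member above 0, at 0.64, and FOSB differed by -2.08.

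The remaining leading PC3 genes had varied roles. CALB1, a calcium buffer of neurons and kidney, was at 138, 77.3 and 69.8 FPKM in PC3 and 0, 0.00881 and 0 in LNCaP. RND3, an atypical small GTPase, was at 111, 78.3 and 71.2 and 0.0186, 0.0875 and 0. PHLDA1 differed by -6.45 ± 0.10, PRSS3, a trypsin, by -6.17 ± 0.25 and SULF2, an extracellular sulfatase, by -6.00 ± 0.15. PRSS3 is close in sequence to other trypsin genes, so its level is uncertain. TIMP2, a metalloprotease inhibitor, was the 1 call among 3 protease genes at -3.32 ± 0.08, and CXCL3, a chemokine, the 1 call among 4 cytokine genes at -3.47 ± 0.07. FRMD6 and GNG2, and PTPRK and TMEM200A, were pairs higher in PC3 that were neighbours only among the genes compared. PTPRK and TMEM200A span chr6:127968779-130443063.

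**Figure D3:**
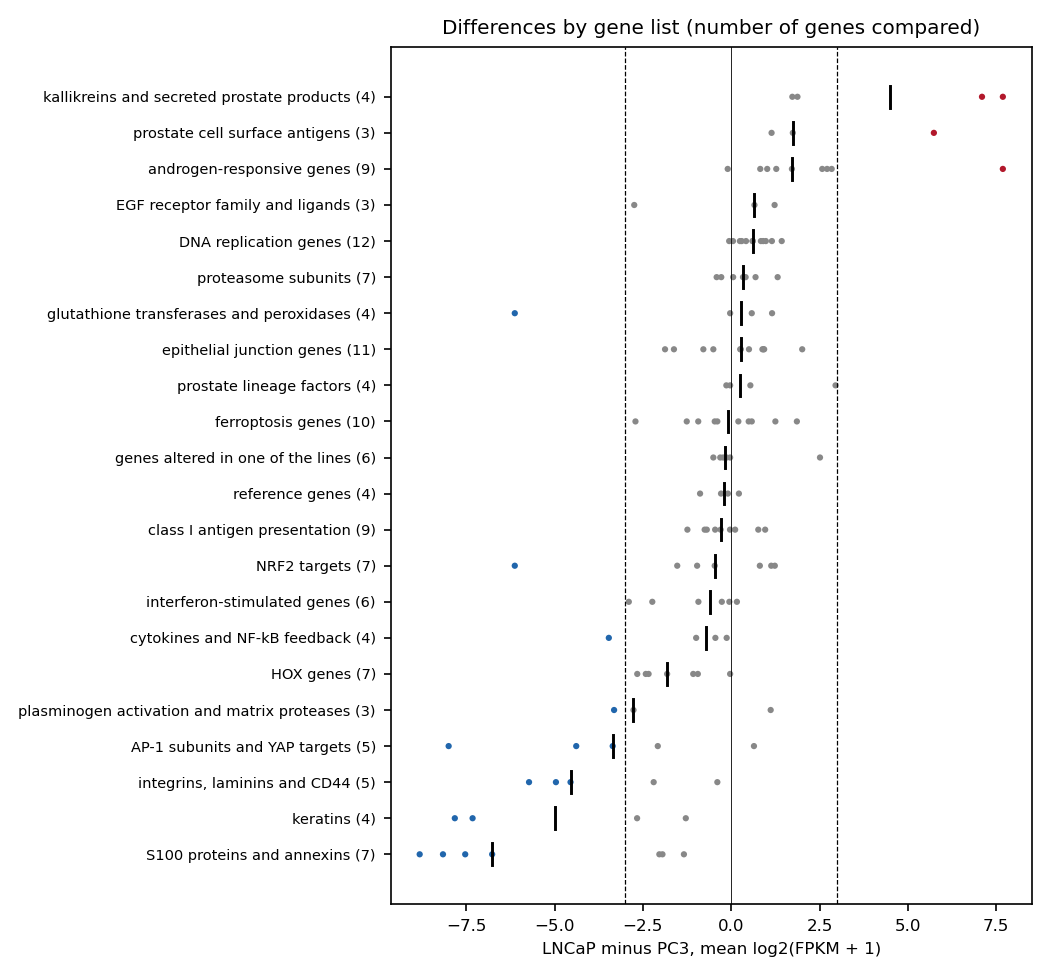
Difference (LNCaP minus PC3, mean log2(FPKM + 1)) of each gene compared, by gene list with at least 3 genes compared (number in brackets, 1 list not drawn). Points are genes, red or blue where called, black bars the list median and dashed lines the threshold of 3. The medians run from -6.77 for S100 proteins and annexins to 4.48 for kallikreins.

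Ferroptosis genes, the target pathway of erastin, gave 0 calls of 10 and a median of -0.10. Over all genes compared 0.824% were called higher in LNCaP and 2.54% higher in PC3, so 0 of 10 says little. SLC7A11, the cystine transporter that erastin blocks, was at 32.2, 23.5 and 23.5 FPKM in LNCaP and 53.2, 33.8 and 27.1 in PC3, and its partner SLC3A2 at 73.4, 93.5 and 107 and 78.6, 140.3 and 152. GPX4, which detoxifies lipid peroxides with glutathione, was at 118, 173 and 253 and 82.8, 123 and 151. The libraries of all 3 genes overlapped between the lines. AIFM2, the ubiquinone reductase FSP1 that guards lipids without glutathione, was at 0.937, 0.943 and 0.854 in LNCaP and 8.05, 12.4 and 15.2 in PC3. Its difference of -2.71 ± 0.25 was without overlap but short of the threshold. ELOVL5, a fatty acid elongase, differed by 1.86 towards LNCaP.

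**Figure D4:**
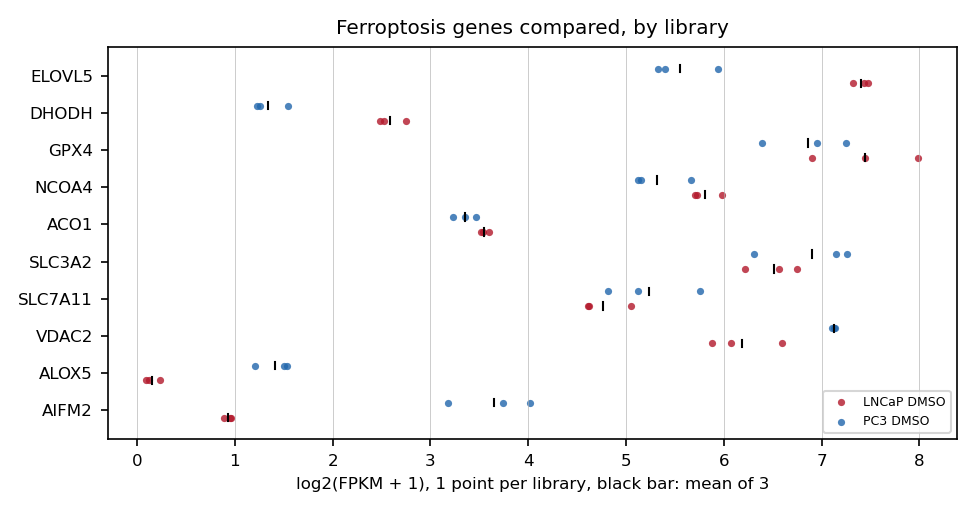
log2(FPKM + 1) in each untreated library for the 10 ferroptosis genes compared (points are libraries, black bars the mean of 3). GPX4, SLC3A2 and SLC7A11 overlap between the lines, while AIFM2 and ALOX5 lie higher in PC3 and ELOVL5 and DHODH higher in LNCaP.

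Glutathione peroxidases and transferases gave 1 call of 4. GPX2, a gut-type peroxidase, was at 89.0, 99.7 and 113 FPKM in PC3 and 0.624, 0.294 and 0.437 in LNCaP, a difference of -6.13 ± 0.14. It was also the 1 call among 7 NRF2 targets, whose median was -0.47. Lists with 0 calls included genes altered in one of the lines (6 genes, median -0.18), class I antigen presentation (9 genes, -0.30), interferon-stimulated genes (6 genes, -0.60), HOX genes (7 genes, -1.82), DNA replication (12 genes, 0.60), proteasome subunits (7 genes, 0.33), EGF receptor genes (3 genes, 0.65) and reference genes (4 genes, -0.19). With 0.824% and 2.54% of all genes compared called, 0 calls in lists this small says little. TBP, a general transcription factor, was at 8.03 ± 0.520 in LNCaP and 8.67 ± 0.548 in PC3.

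Genes of unequal length carried the same kinds of gene further, with 79 higher in LNCaP and 292 higher in PC3 of 7114. Their FPKM rests on a different length in each table, so they stand apart from the counts above. With them included, 117 of 11723 genes were higher in LNCaP and 409 were higher in PC3. Androgen-responsive genes then had 11 of 32 higher in LNCaP and 1 higher in PC3. The lineage factors had 4 of 13 higher in LNCaP and 0 higher in PC3. Their median was 2.37, against 0.25 over the 4 of equal length. TMPRSS2, a membrane protease, was at 172 ± 4.72 FPKM in LNCaP and 5.63 ± 0.771 in PC3. Plasminogen and matrix protease genes had 11 of 18 higher in PC3, integrins and laminins 8 of 17, S100 proteins and annexins 9 of 19, mesenchymal genes 9 of 22 and caveolar genes 3 of 6, with 0 higher in LNCaP in these lists. EGF receptor genes had 3 of 11, HOX genes 3 of 23 and cytokine genes 7 of 17 higher in PC3, again with 0 in LNCaP. The median of the 11 EGF receptor genes was -2.09, against 0.65 over the 3 of equal length. Class I antigen presentation, interferon-stimulated genes and genes altered in one of the lines had 1 each in PC3. DNA replication, proteasome and reference genes had 0 calls. Medians over genes of any length were -2.16 for S100 proteins and annexins, 2.51 for kallikreins and -1.30 for AP-1 and YAP pathway genes. The genes of equal length alone gave -6.77, 4.48 and -3.36. Androgen-responsive genes had medians of 1.88 at any length and 1.72 at equal length, and protease genes -3.47 and -2.77. GSTP1, a glutathione transferase silenced by methylation in most prostate cancers, was at 0.0350, 0 and 0.0685 in LNCaP and 131, 209.6 and 239 in PC3. ACSL4, which loads polyunsaturated fatty acids into membranes, was at 0.698, 0.578 and 0.776 and 36.9, 22.5 and 17.8, and was the ferroptosis gene higher in PC3. ALOX15, a lipoxygenase, was the ferroptosis gene higher in LNCaP, at 40.5, 46.1 and 45.4 against 0.0211, 0 and 0.0419 in PC3. EGFR was at 6.09 ± 1.86 and 11.2 ± 1.48, NQO1 at 32.1 ± 8.66 and 24.7 ± 0.811, ACTB at 689.7 ± 145 and 728 ± 122, and GAPDH at 719 ± 158 and 878 ± 28.4.

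RefSeq start-site windows were found for 32 of the 38 genes higher in LNCaP and 85 of the 117 higher in PC3. Of these 117 windows, 92 lay within 1000 bases of the deposited gene's start, and 53 genes had more than 1 start listed. The hexamer AGAACA, one arm of the androgen response element, searched on both strands, lay in 4 of the 32 (12.5%), 3 of the 85 (3.53%), 7.09% of the 3792 windows of genes compared and 12.4% of all 27305 windows. The loose AP-1 motif TGANTCA, with any base at N, lay in 2 of the 32 (6.25%) and 10 of the 85 (11.8%). It lay in 3.72% of the windows of genes compared and 6.60% of all windows. Matches with G or C at N were not counted apart from those with A or T. The KLK3 hexamer printed above starts 170 bases before the gene's start and opens the run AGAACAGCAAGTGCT, whose last letters match TGTTCT, the other arm of the element, at 4 of 6 positions. The TGANTCA match starts 127 bases before the start in ANXA2, 173 in PRSS3 and 191 in IL1RL1. IL1RL1, a decoy and signalling receptor for interleukin-33, was at 58.8, 44.4 and 38.9 FPKM in PC3 and 0, 0 and 0.0228 in LNCaP. A match of letters is a description and shows no binding.

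The erastin libraries of each line gave the same comparison in samples that share none with the DMSO libraries, though in the same tables. There 67 genes were higher in LNCaP, 1.45%, and 81 higher in PC3, 1.76%. Of the genes higher in LNCaP, 31 were called in both sets, which is 81.6% of the DMSO calls and 46.3% of the erastin calls. Of those higher in PC3, 35 were called in both, 29.9% and 43.2%. No gene was called in opposite directions. KLK3 stayed higher in LNCaP with erastin, at 16.4, 14.5 and 18.9 FPKM against 0.0468, 0.0150 and 0.0536, and S100A6 stayed higher in PC3, at 249.8, 259.9 and 222 against 0 in all 3. CALB1 was at 2.48, 2.51 and 2.43 in the PC3 erastin libraries and GPX2 at 2.99, 2.51 and 4.10, and neither was called there.

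**Figure D5:**
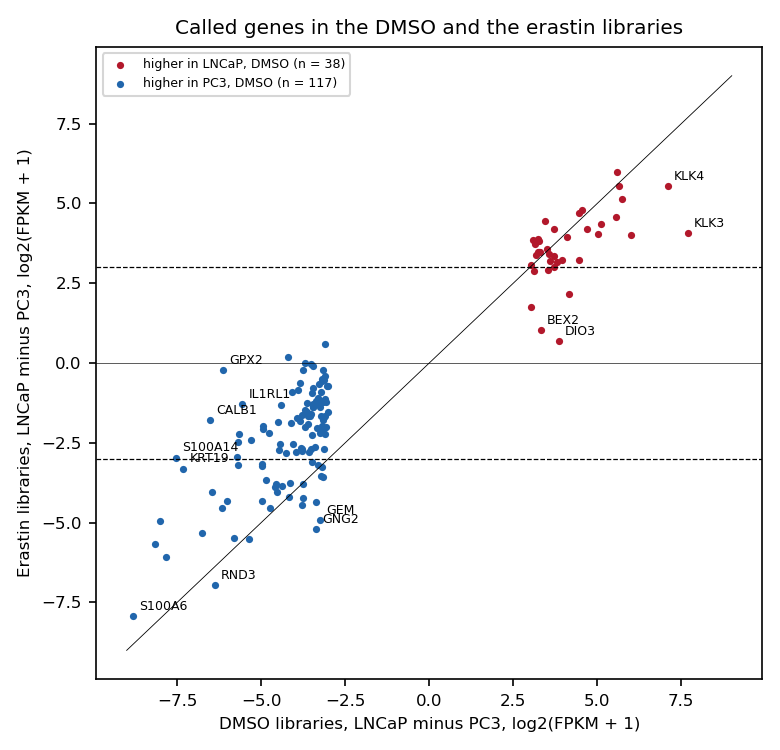
Difference (LNCaP minus PC3, mean log2(FPKM + 1)) in the untreated libraries on the horizontal axis and in the erastin libraries on the vertical axis, for the 155 genes called in the untreated libraries. Dashed lines mark 3 and -3. The erastin difference is within 1 of the untreated one for 30 of the 38 red points, KLK3, MME and GLYATL1 being among those farther off, and for 26 of the 117 blue points.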

How the data were processed

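RNA-seq was read from 6 untreated libraries, with 6 erastin libraries as a second set. RNA was taken with TRIzol and libraries were built with an Illumina TruSeq kit, per the labels' protocols. The submitters' processing notes name HISAT2 version 2.0.5 and build hg38. How reads were counted, with or without strand, and how libraries were scaled is not given in the sources used here. Values of genes that overlap, run antisense or have near-identical copies are therefore uncertain. The authors deposited FPKM values and gene lengths, 1 table per line. The tables hold 58735 and 61221 genes, 58503 of them shared. All values above 0 were whole multiples of 1 read's worth per library, within 0.1 reads, which gave the read numbers.

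Differences were computed on log2(FPKM + 1) with Python 3.11.15, pandas 2.3.3 and numpy 2.4.6, and drawn with matplotlib 3.10.9. No test was run between lines. The procedure was tested on simulated data. Named genes were the 15 called genes with the largest difference in each direction, up to 4 called members per list, genes in runs of neighbours and a set of markers and ferroptosis genes. Other genes are given as members of a list. Genes on the Y chromosome are not named, and some other genes of the marker set are not reported here. The genes compared, the lists and the rule were chosen with earlier results of these data known. Start-site sequences came from RefSeq and ran from 250 bases before to 50 after each start. The windows searched for motifs were only the 250 bases before the first start listed. The alternatives tried are given at the end.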

Additional observations from a re-analysis of the deposited data

Results flagged for a closer look

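Among list members, 4 genes lay on opposite sides in the untreated and the erastin libraries, by at least 1 each way and with every library of one line above the other. The change of side itself was not tested. CLDN4, a tight junction claudin, differed by -1.62 in the untreated libraries and by 4.11 in the erastin libraries. KRT8, a simple-epithelium keratin, differed by -2.67 and 1.56. TSC22D3, a steroid-induced leucine zipper protein, differed by 1.72 and -1.01. ZBTB10, a zinc finger protein, differed by 1.02 and -3.16. Over all genes compared, 16 did so.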

How the results depend on the processing

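Counts here are given as higher in LNCaP and higher in PC3. A pseudocount of 0.1 gave 144 and 336 genes, and 0.5 gave 63 and 192, against 38 and 117. A threshold of 2 gave 128 and 283, and one of 4 gave 15 and 44. Genes of any length gave 117 and 409, and with PC3 values put on the LNCaP table's length, an alternative chosen after seeing the data, 120 and 413. Calls shared with the erastin libraries, 31 and 35, became 86 and 179 with a pseudocount of 0.1, 65 in PC3 with 0.5, 89 and 109 at a threshold of 2, 12 and 15 at 4, 72 and 137 with any length and 73 and 135 on 1 length. Runs of at least 3 neighbours, 1 and 1, became 3 and 9 with 0.1, 2 in LNCaP with 0.5, 0 and 0 with no filter, 2 in LNCaP at a mean of at least 5 FPKM, 2 and 4 at a threshold of 2, 0 in LNCaP at 4, and 2 and 3 with any length on either length. Leaving out each library in turn gave 36 to 43 and 113 to 118 genes, and 29 to 34 and 35 to 36 shared calls. Quantile normalization gave 45 and 105. Of 616 recomputed differences of single genes, 78 moved by more than the spread, 70 of them with another pseudocount, and 0 reversed. Of 336 recomputed list medians, 25 moved. No paired analysis was possible because the comparison between lines rests on no test and its libraries share no source. At the depths given, levels near 0 rest on few reads, which is where the pseudocount acts most.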

Other observations

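Some genes higher in PC3 are known from liver, gut and bile duct rather than prostate, and were singled out after their values were seen. HNF4A, a hepatic and intestinal nuclear receptor, was at 12.7 ± 1.98 FPKM in the PC3 libraries and 0.00287 ± 0.00496 in LNCaP. FOXA2, an endoderm factor, was at 13.1, 21.9 and 22.2 and 0.0257, 0 and 0.0252, MUC13, an intestinal mucin, at 23.9, 19.3 and 18.2 and 0 in all 3, and SLCO1B3, a hepatic uptake transporter, at 21.9, 11.6 and 11.1 and 0, 0.0177 and 0. In the erastin libraries labelled PC3, HNF4A was at 0.228, 0.124 and 0.195, FOXA2 at 6.40, 6.70 and 5.85, MUC13 at 1.30, 1.67 and 1.70 and SLCO1B3 at 0.674, 0.847 and 0.912. A gene annotated in the LNCaP table alone overlaps FOXA2.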
